A study of Homo sapiens with 8 samples.

Results

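The 8 genes described here were followed across 4 human embryonic stem cell lines: GLIPR1L1, ECHDC3, LRFN5, HAS2, SLC47A1, GAD1, ARRB1 and ABHD12B. They were picked for their levels in these same arrays, as genes of enzymes, transporters and adaptors with low signal in both ZFX clones or high signal in the control clone 3. The set comprises 8 of the 18852 named genes on the array and 18 of its 48802 probes. Because the choice used the differences between ZFX and control lines and between clone 3 and parental H9, those differences are given as a description of the genes, without a test. The difference between the ZFX clones was not itself part of the choice and was tested, although the levels of both clones entered the choice.

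The ZFX lines were clones 5 and 2, derived from the H9 (WA-09) embryonic stem cell line with a bacterial artificial chromosome that carries the ZFX locus, and selected by drug resistance. The control lines were clone 3, a clonally derived wild-type line, and the parental H9 cells. The labels do not say whether clone 3 was drug selected, so effects of selection and of ZFX cannot be told apart in comparisons with either control line. Each line is 1 clone or 1 parental culture, all in standard stem cell conditions, and was measured on 2 Illumina bead arrays. No label names separate cultures for the arrays of 1 line, so p-values within lines cover only the spread between those arrays, which may be technical. The comparison of ZFX with control lines sets only 2 lines against 2, and its p-values rest in part on arrays of the same line.

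Between 19177 and 20588 probes were detected per array (detection p under 0.05), and the number of arrays limits the precision. Arrays of a line correlated at 0.9938 to 0.9943, whereas clone 3 reached at most 0.9846 with any array of another line and so stood apart. ZFX itself had normalised log2 intensities of 7.07 and 7.52 in clone 5, 7.55 and 7.64 in clone 2, 6.26 and 6.12 in clone 3 and 6.06 and 5.99 in H9. The stem cell markers were present, with all 9 pluripotency genes on the array detected in every line. Markers of the primitive streak and mesendoderm, the cells that form when stem cells begin to make mesoderm and endoderm, differed between lines. Their summed normalised intensity, on the linear scale over 11 genes, was 276.7 to 285.6 in clone 5, 278.4 to 308.3 in clone 2, 3103 to 3193 in clone 3 and 340.2 to 358 in H9. Of these markers 8 were detected on both arrays in clone 3, against 5 in H9, and each ZFX clone had 2. GATA6 and MESP1 were not detected in clone 3 or in any other line. In clone 3 these markers were thus high in the same line as all 8 genes, and their part in the results below was not tested. In RNA from a whole culture, fewer cells of a type and less RNA per cell cannot be told apart.

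The products of the 8 genes work in separate cell functions. GLIPR1L1 belongs to the secreted CAP protein superfamily and has been studied mainly in sperm. ECHDC3 carries an enoyl-CoA hydratase domain, the fold of enzymes of fatty acid oxidation, and ABHD12B carries the alpha/beta hydrolase fold of many lipases and esterases. HAS2 is a plasma membrane enzyme that makes hyaluronan, a long sugar polymer of the extracellular matrix, and GAD1 converts glutamate to the inhibitory transmitter GABA. SLC47A1 (MATE1) exports organic cations from kidney and liver cells in exchange for protons. LRFN5 is a leucine-rich repeat adhesion protein of synapses, and ARRB1 (beta-arrestin) binds activated G protein-coupled receptors, switches off their G protein signal and recruits other proteins to them. ZFX is a zinc finger transcription factor that binds many promoters near the transcription start and is known for its role in stem cell self-renewal.

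Promoter sequence from RefSeq (GRCh38.p14) was matched for 5 of the 8 genes, GLIPR1L1, ECHDC3, LRFN5, GAD1 and ABHD12B, among 35116 promoters that span 250 bases before to 50 bases after the start. The 3 shown are those of GLIPR1L1, detected on every array and low in both ZFX clones against each control line, ECHDC3, the only one of the 5 with the core of the ZFX binding motif, and GAD1, whose signal fell below detection in both ZFX clones. They give the 250 bases before the start, all on the plus strand, and capitals mark the ZFX core AGGCCT and the TATA box TATAAA on either strand. GLIPR1L1 is at chr12:75334420-75334669, ECHDC3 at chr10:11742132-11742381 and GAD1 at chr2:170816637-170816886.
GLIPR1L1: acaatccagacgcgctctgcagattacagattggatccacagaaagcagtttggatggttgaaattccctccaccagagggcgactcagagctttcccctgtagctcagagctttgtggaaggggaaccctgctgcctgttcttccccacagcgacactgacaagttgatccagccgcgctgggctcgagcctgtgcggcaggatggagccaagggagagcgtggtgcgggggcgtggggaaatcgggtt
ECHDC3: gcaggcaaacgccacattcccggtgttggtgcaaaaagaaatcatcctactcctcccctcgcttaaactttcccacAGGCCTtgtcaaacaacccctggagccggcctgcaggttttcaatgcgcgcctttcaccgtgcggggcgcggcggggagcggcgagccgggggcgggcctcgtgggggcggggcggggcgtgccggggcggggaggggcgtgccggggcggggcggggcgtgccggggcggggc
GAD1: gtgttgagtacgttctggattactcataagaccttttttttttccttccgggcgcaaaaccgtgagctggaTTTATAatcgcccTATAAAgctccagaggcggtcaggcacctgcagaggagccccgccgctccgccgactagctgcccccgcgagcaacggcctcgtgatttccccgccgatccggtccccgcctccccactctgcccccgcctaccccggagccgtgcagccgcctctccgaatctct

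AGGCCT reads the same on both strands and occurred in 10.9% of all promoters of this length. Among the 5 it was found only in ECHDC3, 174 bases before the start. TATAAA was in 11.5% of all promoters and, of the 5, in GAD1, at 179 and 166 bases before the start. CCAAT, in 34.6% of all promoters, was found in GLIPR1L1, and GGGCGG, in 45% of them, in ECHDC3 and ABHD12B. No T-box half-site AGGTGTGA (0.98% of all promoters) and no TCF/LEF motif CTTTGAT (2.62%) was in any of the 5 windows. Both strands were searched for each motif, and no match overlapped a match of another motif. The ratio of observed to expected CpG was 1.05 in GAD1 and 1.04 in ABHD12B, at or above 94.9% and 94.5% of all promoters, while GLIPR1L1 at 0.593 lay close to the median of 0.579. No motif of those searched was thus in all 5 promoters, and their CpG content ranged from high to average.

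All 8 genes were highest in clone 3, and for each of them both clone 3 arrays lay above both H9 arrays, as they did for 26.8% of all 19124 tested features. In 6 of the 8, all ZFX arrays lay below all control arrays, which was so for 4.47% of the features. Both counts follow from the choice of the genes, and nothing is read from them. The median log2 difference over the 8 genes was -1.94 for ZFX minus control lines and 2.47 for clone 3 minus H9, while the median over all features was -0.00155 and -0.0113. With GAD1 at its lower bound of change the first median is the same. Against H9 alone the genes did not form 1 pattern. Clone 5 was below H9 without overlap in 7 of the 8 genes (22.9% of all features) and clone 2 in 6 (26.3%). ARRB1 and ABHD12B were higher in clone 2 than in H9, so the description "low in both ZFX clones" holds for them only against clone 3.

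**Figure D1:**
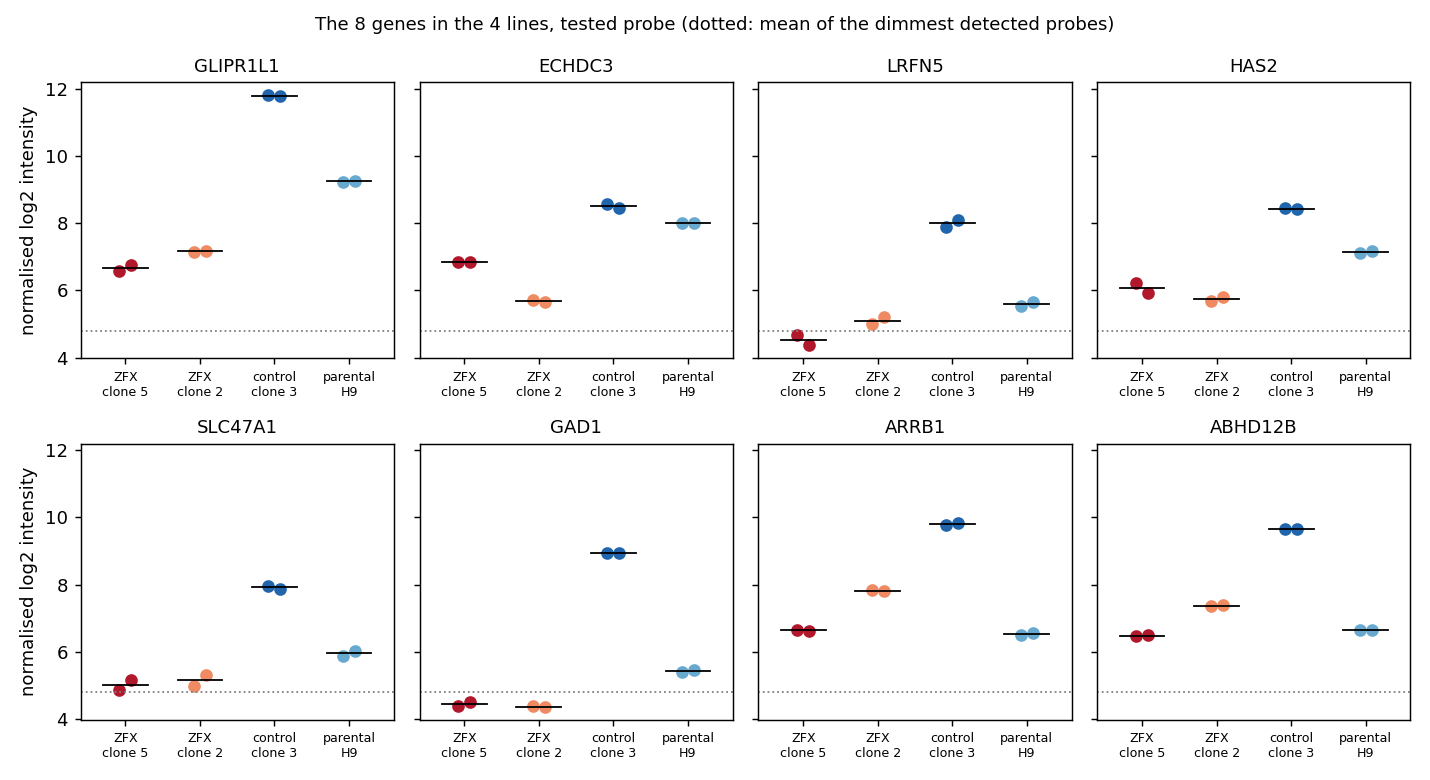
Normalised log2 intensity of the tested probe of each gene, 1 point per array and a bar at the mean of 2 arrays, by line; the dotted line is the mean over arrays of the dimmest detected probe. Clone 3 is highest in all 8 panels, and the ZFX clones lie below H9 except for ARRB1 and ABHD12B in clone 2 and ARRB1 in clone 5.

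GLIPR1L1 was the secreted protein of the set and was low in both ZFX clones against each control line. Its normalised log2 intensities were 6.58 and 6.75 in clone 5, 7.15 and 7.17 in clone 2, 11.82 and 11.78 in clone 3, and 9.24 and 9.25 in H9. The 4 lines did not overlap, and both ZFX clones lay below H9. ZFX minus control was -3.61, clone 5 minus H9 was -2.58, clone 2 minus H9 was -2.08 and clone 3 minus H9 was 2.55. In the authors' processed values ZFX minus control was -2.91 for this gene. The raw intensities were 153 and 134 in clone 5, 178 and 164 in clone 2, 3776 and 3664 in clone 3, and 749 and 587 in H9, so the order is visible before any normalisation.

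Among the enzymes, ECHDC3 was the gene for which H9 came nearest to clone 3. It read 6.84 and 6.85 in clone 5, 5.70 and 5.66 in clone 2, 8.56 and 8.45 in clone 3, and a mean of 8.01 ± 0.0194 (SD, n = 2 arrays) in H9. No lines overlapped, and clone 2 rather than clone 5 was the lowest. Clone 5 minus H9 was -1.16, clone 2 minus H9 -2.33 and clone 3 minus H9 0.49 on the log2 scale. Both ZFX clones lay farther from H9 than clone 3 did, which was so for no other of the 6 genes detected on all arrays.

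GAD1, the GABA-synthesising enzyme, was not detected on any ZFX array with any of its 3 probes. The tested probe read 4.39 and 4.51 in clone 5, 4.39 and 4.35 in clone 2, 8.94 and 8.94 in clone 3, and 5.41 and 5.45 in H9. Only clone 3 was far above background, and H9 lay modestly above it. Since the ZFX values are not well above background, only bounds hold: the ZFX lines were at least 5.25-fold lower than the control lines, clone 5 at least 1.55-fold and clone 2 at least 1.56-fold lower than H9, and each ZFX clone at least 17.7-fold lower than clone 3. These bounds set the bright group's mean against the dimmest detected probe of each array or the dim value, whichever was higher. The other probes read 7.70 and 7.76 for 1 of them and 7.61 and 7.71 for the other in clone 3, and each was detected on 1 of 2 H9 arrays. Clone 3 minus H9 was 3.51 for the tested probe. The others were high in clone 3 too, but their H9 means of 4.68 and 4.74 are not above background, so they give neither the size of that difference nor a difference between H9 and the ZFX clones.

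HAS2, the hyaluronan synthase, read 6.22 and 5.91 in clone 5, 5.68 and 5.81 in clone 2, 8.44 and 8.42 in clone 3, and 7.10 and 7.18 in H9. Lines did not overlap. Clone 5 minus H9 was -1.07, clone 2 minus H9 -1.40 and clone 3 minus H9 1.29. A second probe, detected on all 8 arrays, had the same order of lines, with values of 5.65 and 5.66 in clone 5, 5.48 and 5.32 in clone 2, 7.45 and 7.60 in clone 3, and 6.16 and 6.12 in H9. Of the other probes, 1 was detected on 4 of 8 arrays and differed by 0.08 between ZFX and control lines, and 1 was detected on no array. The probes of HAS2 therefore disagree, and the dim ones do not show the difference.

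ABHD12B, the hydrolase, read 6.46 and 6.50 in clone 5, 7.36 and 7.39 in clone 2, 9.66 and 9.66 in clone 3, and 6.66 and 6.66 in H9. Clone 5 lay just below H9, by -0.18, whereas clone 2 lay above it by 0.71. Clone 3 minus H9 was 3.00. A second probe detected on all 8 arrays had clone 3 minus H9 of 2.22 and clone 2 minus H9 of 0.31, and the dimmest, near background and detected on 5 arrays, had 0.47 and 0.20.

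SLC47A1, the transporter, read 4.86 and 5.17 in clone 5, 4.98 and 5.32 in clone 2, 7.96 and 7.87 in clone 3, and 5.88 and 6.03 in H9. The ZFX clones overlapped each other and were dim but detected on every array. Clone 5 minus H9 was -0.94, clone 2 minus H9 -0.81 and clone 3 minus H9 1.96.

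LRFN5, the synaptic adhesion protein, read 4.68 and 4.38 in clone 5, 4.99 and 5.20 in clone 2, 7.90 and 8.09 in clone 3, and 5.55 and 5.66 in H9. Clone 5 was not detected on either array. It was at least 1.75-fold lower than H9 and at least 9.18-fold lower than clone 3. Clone 2 minus H9 was -0.52 and clone 3 minus H9 2.39.

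ARRB1, the receptor adaptor, read 6.65 and 6.63 in clone 5, 7.84 and 7.80 in clone 2, 9.78 and 9.83 in clone 3, and 6.51 and 6.57 in H9. H9 was the lowest line for this gene, which was so for no other of the 8. Clone 5 minus H9 was 0.10, clone 2 minus H9 1.28 and clone 3 minus H9 3.26. With H9 as the only control line, ZFX minus control was 0.69 for ARRB1 and 0.27 for ABHD12B, against -0.94 and -1.23 with both control lines. The tested ARRB1 probe is annotated to a sequence outside RefSeq, and 2 further ones to RefSeq transcripts. In these 2 further ARRB1 probes, each detected on all 8 arrays, clone 3 minus H9 was smaller, at 1.79. Clone 2 minus H9 was 0.79 and 0.67 in them, and clone 5 overlapped H9. The dimmest probe, annotated to an expressed sequence tag, was detected in clone 3 only, where it read 4.77 and 4.81.

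**Figure D2:**
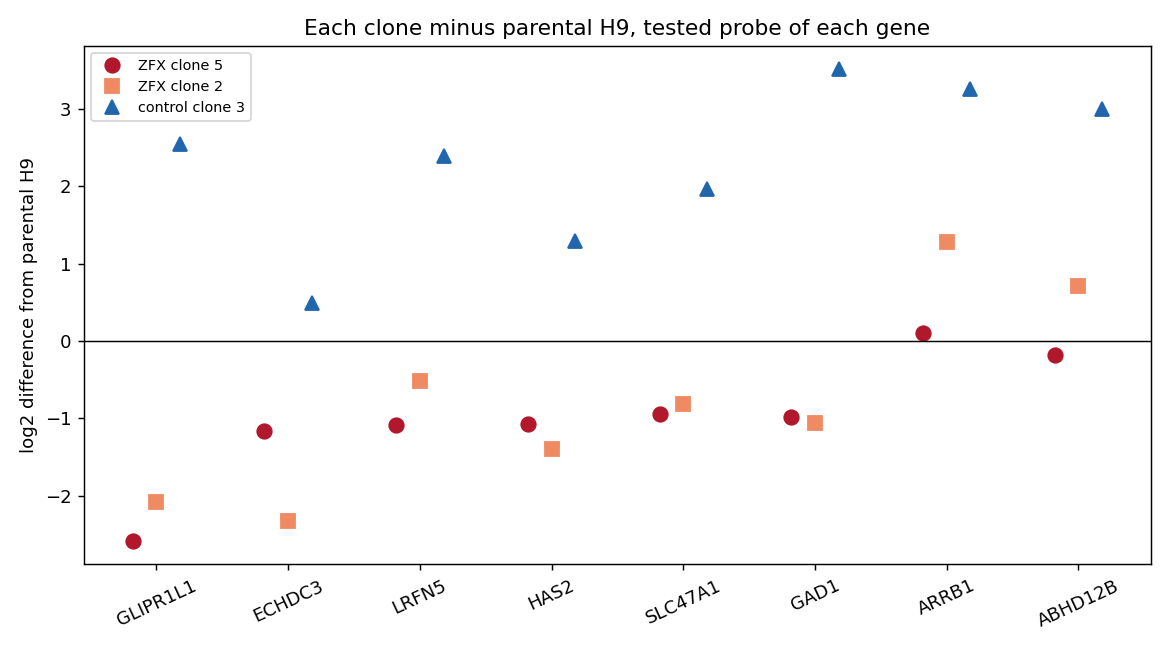
Log2 difference of each clone from parental H9, by gene, for ZFX clone 5 (circles), ZFX clone 2 (squares) and control clone 3 (triangles); the difference is of means of 2 arrays. Clone 3 is above 0 for all 8 genes, and clone 2 is above 0 for ARRB1 (1.28) and ABHD12B (0.71); for LRFN5 in clone 5 and GAD1 in both ZFX clones the points rest on undetected signal.

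Whether the ZFX clones had the same level of each gene was tested with limma across all features, since this contrast did not itself choose the genes. Genes picked for differences among these lines may be more likely to differ between any 2 of them. The count of genes called is therefore a description, and nothing is read from its size beside all features. Of the 8 genes 4 differed between clone 5 and clone 2 at an adjusted p under 0.05, 3 lower and 1 higher in clone 5, where 3.27% of all features were called (2.2% lower, 1.07% higher; 3.94% of named genes). ARRB1 was lower in clone 5 than in clone 2 by a log2 difference of -1.18 (SE 0.102, 95% interval -1.39 to -0.97, limma adjusted p = 2.15e-08). ABHD12B was also lower in clone 5, by -0.90 (SE 0.104, interval -1.11 to -0.68, limma adjusted p = 3.07e-06). For both genes the arrays of the ZFX clones did not overlap, and clone 5 lay near H9 while clone 2 lay between H9 and clone 3. Further probes gave the same direction, with -0.78 (adjusted p = 0.000321) and -0.72 (adjusted p = 0.00208) for ARRB1 and -0.50 (adjusted p = 0.0225) for ABHD12B, in a limma fit over all 23280 kept probes, of which 2.93% were called. The dimmest probes of ARRB1 and ABHD12B did not pass, at 0.06 (adjusted p = 0.924) and -0.24 (adjusted p = 0.554).

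ECHDC3 differed the other way and was higher in clone 5 than in clone 2 by 1.17 (SE 0.111, interval 0.94 to 1.40, limma adjusted p = 9.6e-08). GLIPR1L1 was lower in clone 5 by -0.50 (SE 0.091, interval -0.68 to -0.31, limma adjusted p = 0.00155). With median scaling in place of quantile normalisation the difference was -0.38 for GLIPR1L1 and -0.76 for ABHD12B, and neither passed (adjusted p = 0.699 and 0.0992). Without the intensity trend in the variance model GLIPR1L1 did not pass either (adjusted p = 0.115). ARRB1 and ECHDC3 passed under each alternative run for this contrast, which are those of scaling, background correction, values, filter, variance trend, replicate block and left-out arrays.

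The remaining 4 genes did not pass. LRFN5 came nearest, at -0.56 (interval -0.89 to -0.23, limma adjusted p = 0.0503) with clone 5 at least 1.23-fold lower than clone 2, and it passed in 3 of the 8 fits that left out 1 array. HAS2 had a difference of 0.32 (interval 0.06 to 0.59, adjusted p = 0.193), SLC47A1 of -0.13 (interval -0.45 to 0.20, adjusted p = 0.761) and GAD1 of 0.08 (interval -0.23 to 0.39, adjusted p = 0.866). With 1 array left out HAS2 ranged over 0.17 to 0.48 and SLC47A1 over -0.30 to 0.04, with a change of sign for SLC47A1 without the second array of clone 2, and neither passed in any of the 8 fits. For SLC47A1 the interval allows differences of up to 0.45 in size, and for GAD1 both levels were below detection, so a difference there was not measurable. ZFX itself did not pass between the ZFX clones, with a difference of -0.30 (limma adjusted p = 0.286).

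**Figure D3:**
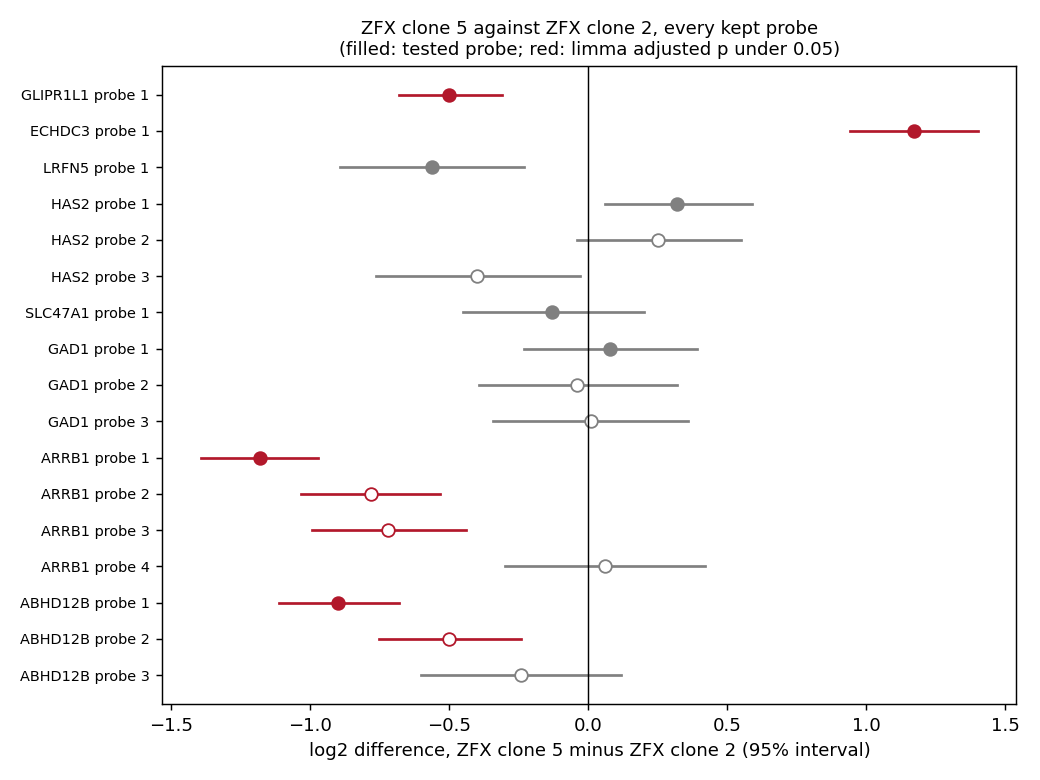
Log2 difference of ZFX clone 5 minus ZFX clone 2 with its 95% interval for each of the 17 kept probes; filled circles are the tested probes, open circles further probes of the same gene, and red marks an adjusted p under 0.05. ECHDC3 lies to the right of 0, and the 3 brighter probes of ARRB1, the 2 brighter ones of ABHD12B and GLIPR1L1 to the left.

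The genes that work with each of the 8 were then counted on lists of partners and relatives, 117 genes in all, of which 71 were tested. Between ZFX and control lines 4 of the 71 passed (5.63%, against 1.68% of all features and 2.3% of named genes), all of them lower in the ZFX lines and all from the hyaluronan list. Over all features 0.56% were called lower and 1.12% higher in the ZFX lines. Between clone 3 and H9, 15 passed (21.1%, against 19.8% of all features and 25.1% of named genes), 14 of them higher in clone 3, where 9.85% of all features were higher and 9.91% lower. Between clone 5 and clone 2, 4 passed (5.63%, against 3.27%). The lists were drawn up with earlier results of these data known, and their counts are given as a description.

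Of the 16 hyaluronan genes 11 were tested. The 4 that passed, all lower in the ZFX lines, were a second synthase, a turnover gene and 2 binding partners. The list's median log2 difference was -0.25. HAS3, a second hyaluronan synthase, read 8.97 and 8.96 in clone 5, 9.47 and 9.37 in clone 2, 9.78 and 9.78 in clone 3, and 9.70 and 9.67 in H9. All ZFX arrays lay below all control arrays, and the log2 difference was -0.54 (SE 0.122, limma adjusted p = 0.0275). CEMIP2, a cell surface protein linked to hyaluronan turnover, read 8.06 and 8.05 in clone 5, 8.35 and 8.46 in clone 2, 9.43 and 9.54 in clone 3, and 8.51 and 8.63 in H9. It was lower in the ZFX lines by -0.80 (SE 0.197, limma adjusted p = 0.0463), while clone 3 exceeded H9 by 0.92 (adjusted p = 1.3e-08). Against H9 alone the difference of CEMIP2 was -0.34 and did not pass (adjusted p = 0.0987). HAS3 passed in 3 and CEMIP2 in 2 of the 8 fits that left out 1 array (adjusted p up to 0.0864 and 0.123).

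CD44, the main cell surface receptor of hyaluronan, read 5.06 and 4.71 in clone 5, 4.60 and 5.23 in clone 2, 6.60 and 6.70 in clone 3, and 5.93 and 6.10 in H9. It was detected on 1 of the 2 arrays of each ZFX clone and was lower in the ZFX lines by -1.43 (SE 0.222, limma adjusted p = 0.00199). The other CD44 probes did not show this. A dimmer probe, detected on all 8 arrays, differed by 0.18 in the opposite direction, and a probe detected on 2 arrays by -0.10. The CD44 call thus rests on 1 of its 3 kept probes, detected on 6 arrays. VCAN, a matrix proteoglycan that binds hyaluronan, read 9.17 and 9.28 in clone 5, 9.17 and 9.16 in clone 2, 9.84 and 10.30 in clone 3, and 10.28 and 10.01 in H9. Here H9 and clone 3 overlapped, with a difference of -0.07 between them (adjusted p = 0.71), and the ZFX lines were lower by -0.91 (SE 0.131, limma adjusted p = 0.000946). VCAN was also lower against H9 alone, by -0.95 (adjusted p = 3.11e-06). The calls of CD44 and VCAN held in all 8 fits that left out 1 array. HAS3 and CEMIP2 also differed between the ZFX clones, both lower in clone 5, by -0.45 (adjusted p = 0.00155) and -0.35 (adjusted p = 0.0306). A dimmer HAS3 probe, detected on all 8 arrays, did not show this, at 0.12 (limma adjusted p = 0.801). Between ZFX and control lines that probe differed by -0.43, in the same direction as the tested one.

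A summed list of fibroblast and mesenchyme markers, cells that make much hyaluronan matrix, stood at 3860 to 3977 in clone 5, 4829 to 4844 in clone 2, 6321 to 6405 in clone 3 and 5237 to 5291 in H9 on the linear scale. The sum hides opposite members. Of 7 tested genes, limma called 2 higher in clone 3 than in H9, TAGLN by 0.92 and VIM by 0.61, and 3 lower, COL1A1 by -1.41, COL1A2 by -0.44 and THY1 by -0.52, and the median log2 difference was -0.42. Between ZFX and control lines TAGLN (-1.14, adjusted p = 0.0171) and VIM (-1.21, adjusted p = 0.000241) were called, both lower in the ZFX lines. LUM and POSTN were detected in no line, and COL3A1 and SNAI2 were not detected in any of the clones. The part of such cells in the hyaluronan results was not tested.

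**Figure D4:**
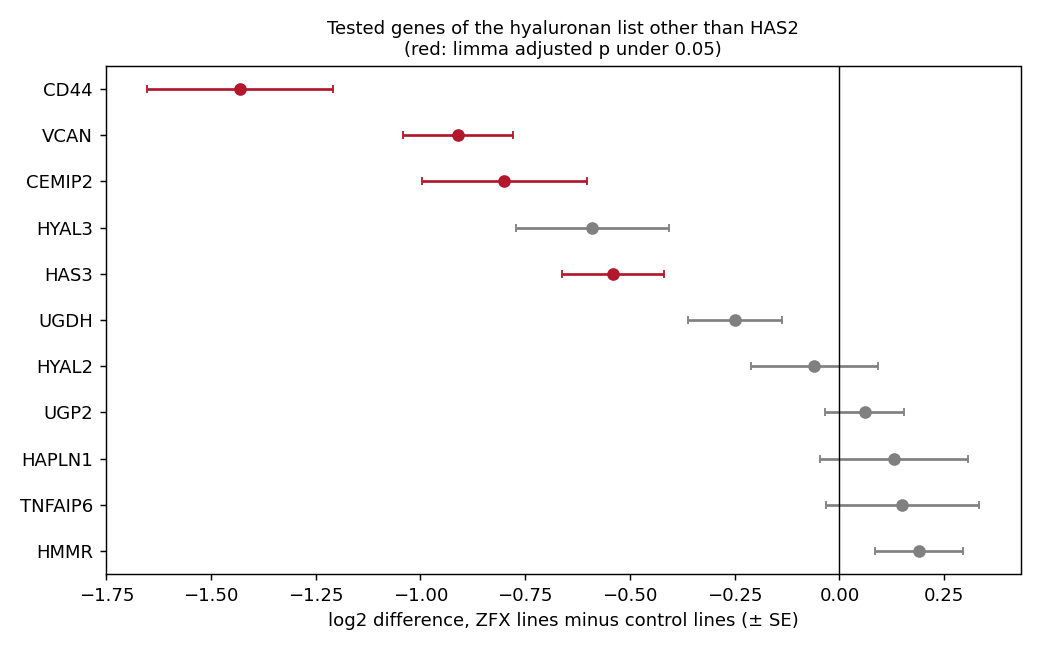
Log2 difference of ZFX minus control lines for the 11 tested genes of the hyaluronan list, with bars of 1 standard error; red marks a limma adjusted p under 0.05. CD44 (-1.43, 1 of 3 kept probes), VCAN (-0.91), CEMIP2 (-0.80) and HAS3 (-0.54) are red and left of 0. HYAL3 (-0.59) lies left of 0 without passing (limma adjusted p = 0.145).

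The lists drawn up around GAD1 and SLC47A1 held no call. Of the GABA and glutamate list 5 of 12 genes were tested, and limma called 0 in each of the 3 comparisons, with 0, 2 and 0 at an unadjusted p under 0.05 for ZFX against control lines, clone 3 against H9 and clone 5 against clone 2. Its largest ZFX-to-control difference was -0.17, for GAD2, the paralogue of GAD1. The organic cation transporter list likewise had 0 calls by limma among 4 tested of 9, with 2, 1 and 0 at an unadjusted p under 0.05, and SLC22A5, a carnitine transporter, had the largest difference, 0.51 (adjusted p = 0.307). SLC47A2, the close relative and genomic neighbour of SLC47A1, was not detected on any array. Summed neuroectoderm markers, a lineage in which GAD1 and LRFN5 are active, were 4047 to 4121 in clone 5, 4075 to 4298 in clone 2, 3512 to 3565 in clone 3 and 3107 to 3143 in H9. The sum hides opposite members. Of 6 tested genes limma called 2 higher in the ZFX than in the control lines, TUBB3 by 0.61 (adjusted p = 0.000898) and HES5 by 0.63 (adjusted p = 0.0267), and 2 lower, OTX2 by -1.23 (adjusted p = 0.0085) and FABP7 by -0.69 (adjusted p = 0.0202). OTX2 averaged 8.14 in clone 5, 7.09 in clone 2, 9.15 in clone 3 and 8.56 in H9, and FABP7 averaged 7.01 in clone 5, 7.07 in clone 2, 7.91 in clone 3 and 7.54 in H9. SIX3, SOX1 and ZIC1 were detected in no line, and the part of such cells in the results for GAD1 and LRFN5 was not tested.

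Clone 3 differed from H9 in a few relatives of LRFN5, ARRB1 and ABHD12B. Over all features 19.8% were called in this comparison (9.85% higher and 9.91% lower in clone 3), and of named genes 25.1%. The counts below are given as a description, and nothing is read from them. Of 13 tested leucine-rich repeat synaptic adhesion genes, 3 were higher in clone 3 and 1 was lower. FLRT2 and FLRT3, adhesion proteins with the same kind of repeats, were higher by 1.23 (SE 0.187, limma adjusted p = 1.32e-05) and 1.20 (SE 0.184, adjusted p = 1.48e-05), and LRFN3 by 0.50 (adjusted p = 0.000205). FLRT3 was detected on 1 of 2 H9 arrays, with a mean of 4.71 that is not above background, so the size of its difference is uncertain. PTPRD, a receptor phosphatase that binds LRFN proteins across the synapse, was lower by -0.69 (adjusted p = 4.32e-05). Among 8 tested arrestins and receptor kinases, the alpha-arrestins TXNIP (adjusted p = 1.54e-08) and ARRDC4 (0.53, adjusted p = 0.0296) were higher in clone 3. TXNIP was detected in clone 3 only, where it was at least 2.68-fold higher than in H9. In the hydrolase list 1 of 16 tested genes passed, ABHD5, a co-activator of fat breakdown, higher in clone 3 by 0.54 (adjusted p = 0.00511). None of these relatives passed between ZFX and control lines.

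Between the ZFX clones, the partner lists outside the hyaluronan genes held 2 calls. ABHD17B, a depalmitoylating hydrolase, was higher in clone 5 than in clone 2 by 0.45 (SE 0.104, limma adjusted p = 0.0119), opposite to ABHD12B. Its other kept probes did not pass, at 0.35, 0.18 and -0.07 (limma adjusted p = 0.0659, 0.452 and 0.91), so the ABHD17B call rests on 1 probe. CRISPLD2, a secreted CAP protein, was lower in clone 5 by -0.50 (SE 0.121, adjusted p = 0.018), the same size as for GLIPR1L1, but it did not pass between ZFX and control lines (0.21, adjusted p = 0.777).

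The genomic neighbours of each gene, the 2 protein-coding genes on either side in the order of GRCh38.p14, comprised 32 genes, of which 24 were tested. Of these 2 passed between ZFX and control lines (8.33%, against 1.68% of all features and 2.3% of named genes). Both were lower in the ZFX lines, as were 0.56% of all features. Between clone 3 and H9 11 passed (45.8%, against 19.8% of all features and 25.1% of named genes). Of the 11, 9 were higher in clone 3, as were 9.85% of all features. Beside GAD1 on chromosome 2, the second gene before it is SP5, a zinc finger gene that responds to Wnt signals. SP5 read 4.94 and 4.81 in clone 5, 4.65 and 4.60 in clone 2, 8.44 and 8.50 in clone 3, and 5.52 and 5.49 in H9, and it was detected on 5 of 8 arrays. As for GAD1, clone 3 was highest, H9 came next and the ZFX clones were near background. Clone 2, not detected, was at least 1.64-fold lower than H9 and at least 12.8-fold lower than clone 3. SP5 was lower in the ZFX lines by -2.24 (SE 0.525, limma adjusted p = 0.0358), a size that is uncertain because clone 5 was detected on only 1 array. It was higher in clone 3 than in H9 by 2.97 (SE 0.15, adjusted p = 4.23e-15). The ZFX call passed in 2 of 8 fits that left out 1 array, and against H9 alone it was -0.75 (adjusted p = 0.00543). On the other side of GAD1, GORASP2 differed by -0.13 (adjusted p = 0.863).

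Beside SLC47A1 on chromosome 17, the next gene is ALDH3A2, a fatty aldehyde dehydrogenase. ALDH3A2 read 9.60 and 9.75 in clone 5, 9.54 and 9.60 in clone 2, 11.84 and 11.75 in clone 3, and 10.24 and 10.33 in H9. The ZFX clones overlapped each other and lay below H9, as for SLC47A1. It was lower in the ZFX lines by -1.42 (SE 0.272, limma adjusted p = 0.00933) and higher in clone 3 than in H9 by 1.51 (SE 0.0825, adjusted p = 2.34e-14). ALDH3A2 thus differed strongly between the control lines, and its p-value for ZFX against control lines is likely too small. Its other probes differed by -1.34 and -1.46 between ZFX and control lines, and the call held in all 8 fits that left out 1 array. Against H9 alone the difference was -0.67 (adjusted p = 8.82e-05). On the other side, MFAP4, a microfibril protein, read 5.45 and 5.78 in clone 5, 5.82 and 5.70 in clone 2, 8.22 and 8.30 in clone 3, and 5.61 and 5.48 in H9. It was high in clone 3 only, by 2.71 over H9 (adjusted p = 1.55e-14), and RNF112, which lies between MFAP4 and SLC47A1, differed by -0.16 (adjusted p = 0.635).

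**Figure D5:**
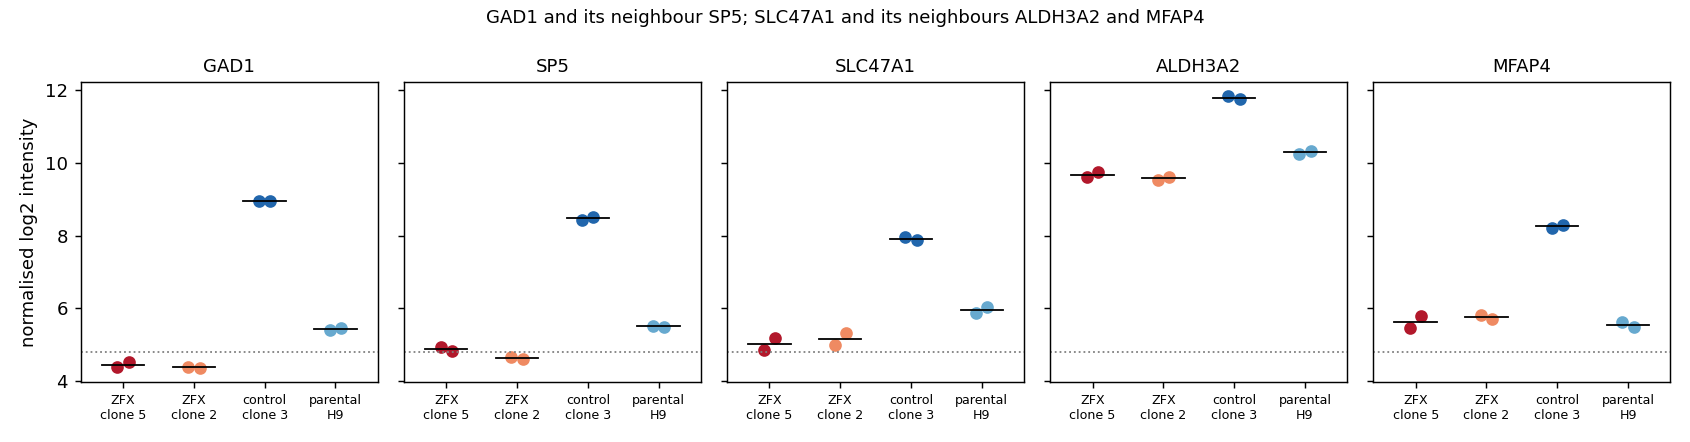
Normalised log2 intensity of GAD1 and its neighbour SP5, and of SLC47A1 and its neighbours ALDH3A2 and MFAP4, 1 point per array with a bar at the mean of 2, by line; the dotted line is the mean of the dimmest detected probes. All 5 genes are highest in clone 3, and MFAP4 differs from the rest in that the ZFX clones are not below H9.

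No tested neighbour of the other genes passed between ZFX and control lines. The 4 neighbours of GLIPR1L1 on chromosome 12, among them its family members GLIPR1 and GLIPR1L2, were detected on 0 arrays. PROSER2, next to ECHDC3, was higher in clone 3 by 0.46 (adjusted p = 0.0397), and USP6NL on its other side differed by 0.07 (adjusted p = 0.742). HAS2 on chromosome 8 lies between SNTB1, lower in clone 3 than in H9 by -0.64 (adjusted p = 0.000139), and ZHX2, higher by 0.93 (adjusted p = 1.09e-07). Its further neighbour DERL1 was higher by 0.31 (adjusted p = 0.0318). LRFN5 and ABHD12B are both on chromosome 14. FBXO33, the nearest tested neighbour of LRFN5, differed by 0.03 between clone 3 and H9 (adjusted p = 0.9), and RPS3 beside ARRB1 on chromosome 11 by 0.08 (adjusted p = 0.558). ABHD12B lies between NIN and PYGL, higher in clone 3 by 0.86 (adjusted p = 1.08e-05) and 0.56 (adjusted p = 0.000117), while TRIM9 beyond PYGL was lower by -0.61 (adjusted p = 0.0134). NIN, a centrosomal protein, was also lower in clone 5 than in clone 2 by -0.46 (adjusted p = 0.0406), as ABHD12B was, but a dimmer NIN probe, detected in clone 5 and not in clone 2, differed by 0.38 (interval 0.02 to 0.73, adjusted p = 0.285). TLK1, beyond GORASP2 near GAD1, was higher in clone 3 by 0.44 (adjusted p = 0.00689).

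The genes with the most similar profile were named by Pearson's r over the 8 arrays among 12582 candidates, as a description, since the 8 arrays are 2 from each of 4 lines and clone 3 is the highest line in each profile. For GLIPR1L1 these were NODAL (0.993) and PLIN2 (0.992), for ECHDC3 FBN2 (0.991) and RNF11 (0.99), and for LRFN5 CEMIP2 (0.994) and GSTO1 (0.992). HAS2 went with FST (0.996) and SUOX (0.993), SLC47A1 with HEY2 (0.995) and ALDH3A2 (0.995), and GAD1 with WLS (0.999) and SP5 (0.998). ARRB1 was closest to SMAD6 (0.996) and IFITM1 (0.992), and ABHD12B to IFITM1 (0.994) and TBC1D2 (0.992). An r above 0.9 was common, with 151 candidates for ECHDC3, 329 for SLC47A1, 357 for GAD1 and 362 for ABHD12B. The neighbours SP5 and ALDH3A2 named above reappear on this measure, which was computed on the same arrays, and no particular link is read from it. IFITM1 was shared by ARRB1 and ABHD12B, the 2 genes in which clone 2 lay above H9.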

How the data were processed

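The 8 arrays measured RNA from 4 lines, grouped by the sample titles. The authors deposited linear probe intensity with a detection p-value per probe, and a table of processed values on a log2 scale whose background treatment is unknown, judged from the files. The submitters' processing notes name BeadStudio, with a version not given in the sources used here. Here intensities were background-corrected by normexp (limma 3.58.1, R 4.3.3, offset 16, negative controls inferred from the detection p-value), quantile normalised and put on the log2 scale. The 23280 probes with a detection p-value below 0.05 on 2 or more arrays were kept, and the brightest probe of each gene and every unnamed probe were tested (19124 features, 12590 named genes). Gene symbols came from the platform annotation, chromosomes and gene order from the RefSeq table for GRCh38.p14.

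Lines were compared by limma with 4 line means, and ZFX with control lines with the line as a random block (correlation 0.353). Variances followed an intensity trend, and p-values were Benjamini-Hochberg adjusted over all features at 0.05. Comparisons of ZFX and control lines and of clone 3 and H9 share control arrays. Replicate numbers did not pair arrays across lines. The fit of line means was tested on simulated data, for the comparison between the ZFX clones only. The fit with the line as a random block was not tested in this way. The genes and lists were chosen with earlier results of these data known. Named were the 8 genes with all probes, ZFX, the 2 most similar genes of each, up to 4 called genes per partner list or else the largest ZFX-to-control difference, called neighbours with the nearest tested one, and marker extremes. Alternatives changed scaling, background correction, values, detection filter, variance trend, control line and arrays. Figures used matplotlib 3.10.9 in Python 3.11.15.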

Additional observations from a re-analysis of the deposited data

Results flagged for a closer look

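In 4 of the 8 genes the ZFX clones differed from each other by a test of that difference (limma, 2 arrays against 2). The log2 difference of clone 5 minus clone 2 was 1.17 for ECHDC3 (adjusted p = 9.6e-08), -1.18 for ARRB1 (adjusted p = 2.15e-08), -0.90 for ABHD12B (adjusted p = 3.07e-06) and -0.50 for GLIPR1L1 (adjusted p = 0.00155). Both arrays of clone 5 lay above both of clone 2 for ECHDC3 and below them for the other 3 genes. Whether the difference came with the clone, the culture or the array was not tested. No group held enough arrays for a test of single outlying arrays.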

How the results depend on the processing

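The 8 genes kept the sign of clone 3 minus H9 in every alternative, and that of ZFX minus control in every one except H9 as the only control line, where ARRB1 was 0.69 and ABHD12B 0.27. With 1 array left out, calls over all features ranged over 177 to 470 for ZFX against control lines (321 with all arrays), 2356 to 3836 between clone 3 and H9 (3778) and 186 to 761 between the ZFX clones (625). It gave 3 to 9, 18 to 27 and 1 to 7 calls among partners and neighbours (6, 26 and 5 with all arrays), 2 to 4 lower hyaluronan genes (4) and 4 to 5 of the 8 genes between the ZFX clones (4). Median scaling gave 1208 calls for clone 3 against H9 and 48 for clone 5 against clone 2, and among partners and neighbours 11 for ZFX against control lines, 15 for clone 3 against H9 and 0 for the ZFX clones (limma, 6 at an unadjusted p under 0.05). It left 2 of the 8 genes called between the ZFX clones, and the share of higher calls for ZFX against control lines was 54.5% rather than 66.7%. Without the intensity trend the calls were 191, 2302 and 48, with 2 and 0 partners and neighbours for ZFX against control lines and for the ZFX clones (limma, 16 at an unadjusted p under 0.05 for the ZFX clones) and 2 lower hyaluronan genes. Without the detection filter the ZFX clones had 414 calls, 3 among partners and neighbours. With H9 as the only control line ZFX against control gave 1089 calls, 11 among partners and neighbours, and with clone 3 alone 2649 and 22. Replicate numbers were shared by all lines, and the correlation of same-numbered deviations between lines was -0.00991 to 0.0628, so they did not pair arrays. With the number as a replicate block there were 3 calls among partners and neighbours for ZFX against control lines and 2 lower hyaluronan genes. SP5, CEMIP2 and HAS3 no longer passed under the block (adjusted p = 0.0747, 0.0882 and 0.0581). Where calls were lost the cause was not tested. The alternatives of control line, trend and filter for the lists were chosen after seeing the data. Dim signal limits LRFN5, SLC47A1, GAD1, CD44 and SP5. Their differences are smaller in the authors' processed values (-0.86, -0.82, -1.34, -0.49 and -1.03 for ZFX minus control). Brighter genes had smaller differences there too, with ECHDC3 at -1.18 rather than -1.99 and HAS2 at -1.03 rather than -1.88. SP5 and CEMIP2 did not pass in the authors' values or without background correction (limma adjusted p = 0.117 and 0.0671, and 0.0833 and 0.0629).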

Other observations

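The enzymes that share the fold of ECHDC3 were all measurable, with 10 of 10 tested, and 4 of them were higher in clone 3 than in H9, where 9.85% of all features were called higher and 25.1% of named genes were called in either direction. ECHDC1, which clears a side product of fatty acid synthesis, was higher by a log2 difference of 0.74 (SE 0.14, limma adjusted p = 0.000237), and ECHDC2, a relative of less known function, by 0.64 (SE 0.0964, adjusted p = 1.35e-05). A dimmer ECHDC1 probe, detected on 8 arrays, differed by only 0.23 in the same direction. ECI2, an isomerase of unsaturated fatty acid oxidation, and HADHA, a subunit of the mitochondrial trifunctional protein, were both higher by 0.46 (adjusted p = 0.00125 and 0.00398). Between ZFX and control lines limma called 0 of the 10, with 1 at an unadjusted p under 0.05, and between clone 5 and clone 2 it called 0, also with 0 at an unadjusted p under 0.05. ECHDC2 averaged 8.67 in clone 5, 8.68 in clone 2, 8.52 in clone 3 and 7.89 in H9, so it was lowest in H9, whereas ECHDC3 was lowest in the ZFX clones.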
